A study of Drosophila melanogaster with 2 samples.

Results

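The proteasome subunit genes of Drosophila melanogaster were examined for peaks of the tagged transcription factor Sox102F at their promoters. They were taken as the protein-coding genes of the Ensembl annotation whose symbol begins with Rpn, Rpt, Prosalpha or Prosbeta, which gave 48 of the 13968 protein-coding genes on the 7 chromosome arms. Of the 48 genes, 23 encode subunits of the regulatory particle (Rpn and Rpt) and 25 encode subunits of the core particle (Prosalpha and Prosbeta). By their symbols, 32 are constitutive subunits, 18 of the regulatory and 14 of the core particle, and 16 are paralogs marked R or T after the subunit number. Chromatin came from whole embryos, 12 to 14 h old, of a stable transgenic line in which Sox102F, a fly Sox protein of the SoxD group, carries a GFP at its C-terminus. It was recovered with an antibody against GFP in 2 biological replicates, numbered 2 and 3, of 1 group, so that the data hold no contrast between conditions. Every cell type of the embryo contributed chromatin, and a peak does not tell in which of them the tagged protein lay.

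The proteasome is the protease that degrades proteins tagged with ubiquitin. Its core particle is a barrel of stacked alpha and beta rings, in which Prosbeta1, Prosbeta2 and Prosbeta5 carry the proteolytic sites. The regulatory particle caps the barrel and has a base, in which the Rpt ATPases unfold the substrate and thread it into the barrel, and a lid, in which Rpn11 removes the ubiquitin chain. Most of the subunits are needed in nearly every cell. Several of the R and T paralogs are known in Drosophila for expression in the male germ line. In animals a transcription factor of the cap'n'collar family can raise the whole set of subunit genes when proteasome activity falls, and in flies this factor is encoded by cnc.

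Few proteasome genes had a promoter peak, and each of these encoded an Rpn protein. A gene was counted as bound when a summit, the highest point of a peak, lay within 500 bp of any of its transcription start sites (TSSs). In the optimal list, which holds the 7488 pooled peaks of highest signal value, 4 of the 48 proteasome genes were bound (8.33%), against 2362 of 13968 protein-coding genes (16.9%). The 95% Wilson interval for the proteasome genes was 3.29 to 19.6%. These were Rpn3, Rpn5, Rpn11 and Rpn13. In the longer pooled list of 30000 peaks, 7 of the 48 were bound (14.6%, interval 7.25 to 27.2%), against 29.5% of all protein-coding genes, with Rpn2, Rpn7 and Rpn9 added. With this window of 500 bp, the share of all genes lay inside the interval of the optimal count and above that of the pooled count. Among the 32 constitutive subunits the shares were 12.5% (interval 4.97 to 28.1%) in the optimal list and 21.9% (interval 11.0 to 38.8%) in the pooled list, so that both intervals held the share of all genes. The intervals cover counting error of genes only. Peak lists carry no read counts, and the depth behind them is unknown.

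The count depended on which replicate was used, and was higher in replicate 3. When the 7488 highest peaks of replicate 3 alone were used, 11 of the 48 genes were bound (22.9%, interval 13.3 to 36.5%), against 20.4% of all protein-coding genes. The same number of peaks from replicate 2 alone gave 4 of the 48 (8.33%), against 15.6% of all protein-coding genes. Over all 30000 peaks of each replicate, 16 of the 48 genes were bound in replicate 3 (33.3%, interval 21.7 to 47.5%), against 37.0% of all protein-coding genes, and 6 in replicate 2 (12.5%, interval 5.86 to 24.7%), against 28.6%.

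**Figure D1:**
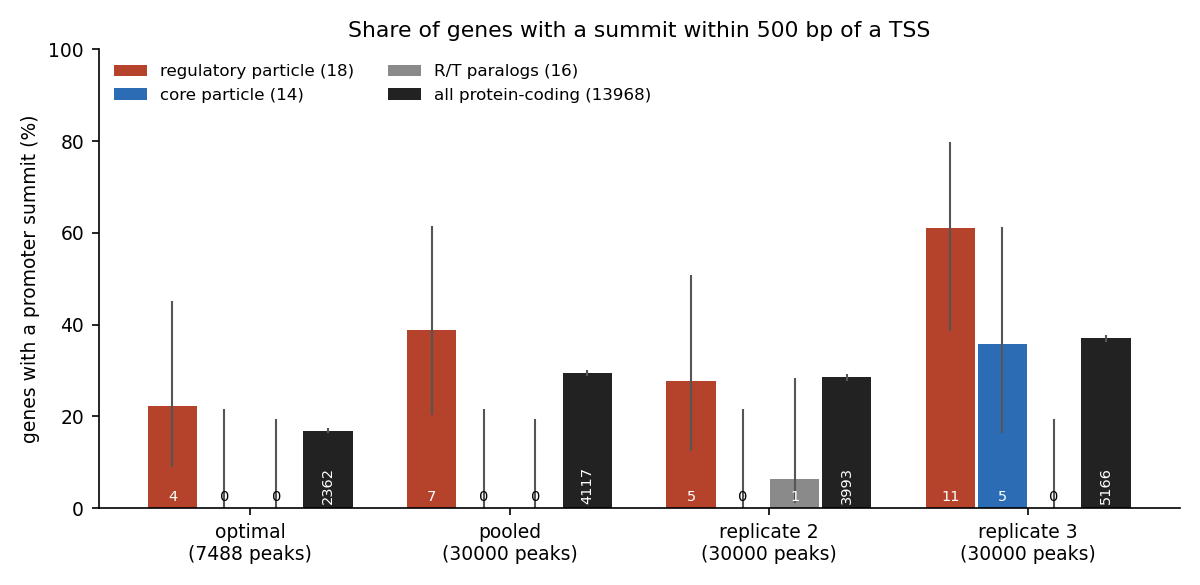
Share of genes, in percent, with a summit within 500 bp of a TSS in the optimal, pooled and replicate lists. Bars give, left to right, the 18 constitutive regulatory subunits, the 14 constitutive core subunits, the 16 R and T paralogs and all 13968 protein-coding genes, vertical lines are 95% Wilson intervals, and the number bound stands in each bar. The core bar is at 0 in all lists except that of replicate 3.

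The genes bound in the optimal and pooled lists belonged to the regulatory particle. Of the 18 constitutive regulatory genes, 4 were bound in the optimal list (22.2%, interval 9.0 to 45.2%) and 7 in the pooled list (38.9%, interval 20.3 to 61.4%). None of the 14 constitutive core genes was bound in either list, and a count of 0 of 14 allows a share of up to 21.4%. That limit lies above the 16.9% of all protein-coding genes in the optimal list and below their 29.5% in the pooled list. With the paralogs added, the counts in the optimal list were 4 of 23 regulatory genes (17.4%) and 0 of 25 core genes, which allows up to 12.0%. The Wilson intervals of the constitutive regulatory and core genes overlapped in both lists, in the pooled list only from 20.3 to 21.5%. Such an overlap does not measure the difference between the 2 groups, which was not tested. In replicate 3 alone, 11 of the 18 regulatory genes (61.1%) and 5 of the 14 core genes (35.7%) had a summit in the window. The share of all protein-coding genes in that list was 37.0%, close to that of the core genes. The absence of constitutive core genes thus held in replicate 2 and the lists made from both replicates but not in replicate 3. With the paralogs added, replicate 2 had a summit at 1 of the 25 core genes, the paralog Prosbeta4R1.

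Within the regulatory particle the bound genes were non-ATPase subunits. Of the 12 constitutive Rpn genes, 4 were bound in the optimal list (33.3%, interval 13.8 to 60.9%), against 16.9% of all protein-coding genes, and 7 in the pooled list (58.3%, interval 32.0 to 80.7%), against 29.5%. None of the 6 Rpt genes, which encode the ATPase ring, was bound in either list, although a count of 0 of 6 allows a share of up to 3 of 6. Replicate 3 alone had a summit at 2 of the 6, Rpt2 and Rpt5 (33.3%), against 37.0% of all protein-coding genes. By their place in the complex, the 8 lid genes gave 3 in the optimal list and 5 in the pooled list, and the 3 Rpn genes of the base gave 1 and 2. Rpn10, a ubiquitin receptor between lid and base, was bound in no list, and its nearest optimal summit lay 20858 bp away. Rpn1, the base scaffold that docks ubiquitin shuttle factors, and Rpn6, a lid subunit, also had no summit in the window in any list.

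The 3 highest lid peaks are shown by sequence, since they are the base of the counts above. Each line gives the bases within 50 bp of the pooled summit, on the strand of the gene and 5′ to 3′, from the RefSeq genome of the dm6 build, with any UTR bases at the ends left out. Capitals mark the 10 sequence words searched, on either strand.
Rpn3, chr2L:19051721-19051789, plus strand: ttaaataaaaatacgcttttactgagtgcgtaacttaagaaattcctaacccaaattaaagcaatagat
Rpn5, chr3R:5789244-5789328, plus strand: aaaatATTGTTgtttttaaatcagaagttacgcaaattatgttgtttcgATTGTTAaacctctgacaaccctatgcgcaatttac
Rpn11, chr2L:5059989-5060089, minus strand: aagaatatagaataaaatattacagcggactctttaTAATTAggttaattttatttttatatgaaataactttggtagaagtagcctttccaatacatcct
The window of Rpn5 held the extended Sox core AACAAT at 2 places, read on the opposite strand as ATTGTT, of which 1 began 1 bp before the summit and overlapped a TAACA. The window of Rpn11 held the homeodomain word TAATTA, and that of Rpn3 held none of the words.

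Rpn3, a structural subunit of the lid, had the highest signal value of the proteasome genes. Signal values are scores that the authors gave to peaks, and they are compared here within a list only. The peak, at chr2L:19051525-19051958, had 723.5 in the optimal list, rank 651 of 7488, with 280.0 in replicate 2 (rank 633 of 30000) and 444.9 in replicate 3 (rank 666 of 30000). Its summit at 19051771 lay 19 bp upstream of the Rpn3 TSS and 159 bp upstream of the TSS of l(2)37Bb, which is transcribed in the opposite direction. Both replicates placed their summits within a few bases of it, at 19 and 17 bp upstream of Rpn3 for replicates 2 and 3.

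Rpn5, another structural lid subunit, had a peak at chr3R:5789163-5789443 with a signal value of 273.1, rank 2678 of the optimal list. Replicate 2 gave 141.1 (rank 1827) and replicate 3 gave 132.0 (rank 3750). The summit lay 199 bp upstream of the Rpn5 TSS but 90 bp downstream of the TSS of Hat1, a histone acetyltransferase gene on the other strand, in an intron of Hat1. Hat1 therefore had the nearer TSS, and Rpn5 was no longer counted when a summit was given to its nearest gene only.

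Rpn11, the deubiquitinase of the lid, had the 1 optimal promoter peak that no other protein-coding gene shared. The peak at chr2L:5059975-5060170 had a signal value of 271.0, rank 2691, with 87.6 in replicate 2 (rank 3316) and 180.5 in replicate 3 (rank 2599). Its summit lay 249 bp upstream of the TSS, and the replicates placed theirs 274 bp (replicate 2) and 235 bp (replicate 3) upstream.

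Rpn13, the ubiquitin receptor held by Rpn2, had the lowest of the 4 optimal signal values and rested on replicate 3. Its peak on 2R, 13960376 to 13960522, had a signal value of 175.2 (rank 4347) and 105.8 in replicate 3 (rank 4763), whereas the nearest peak of replicate 2 was 23116 bp away. The summit lay 64 bp upstream of the Rpn13 TSS and 207 bp upstream of that of CtsL1, which encodes a cathepsin, a protease of the lysosome. With optimal peaks below the median signal value left out, Rpn13 was lost and the other 3 genes were kept.

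The 4 signal values were ordinary for promoter peaks. Their median was 272, with a range of 175 to 723, against a median of 308 and quartiles of 173 and 610 for the highest peak of each of the 2362 bound genes. In the pooled list the 7 proteasome genes had a median of 175, against 131 for 4117 genes. The highest signal value of any gene was 4785.

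**Figure D2:**
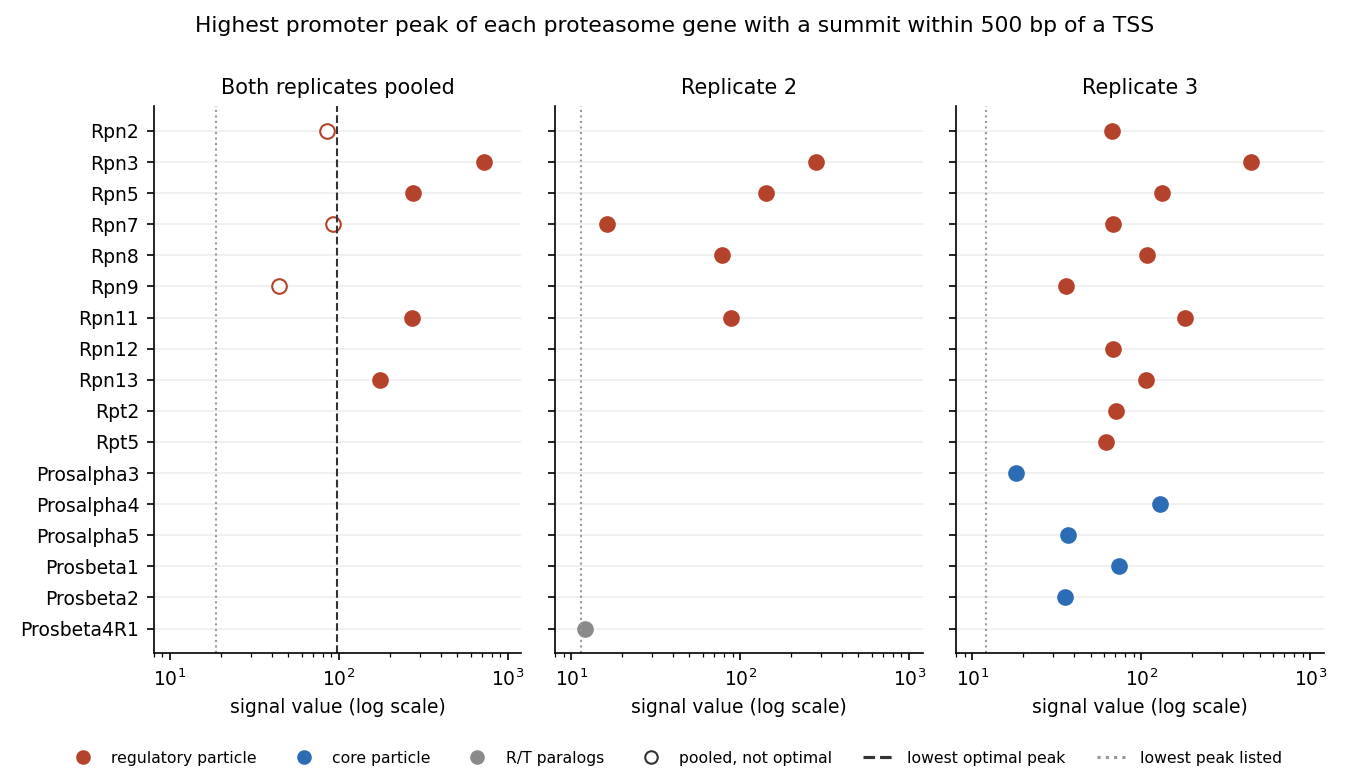
Signal value, on a log scale, of the highest promoter peak of each proteasome gene with a summit within 500 bp of a TSS, in the pooled list and in each replicate. Open circles are pooled peaks that are not in the optimal list, the dashed line is the lowest optimal signal value (97.2) and the dotted lines are the lowest values listed. Replicate 3 holds 16 of the genes and replicate 2 holds 6, and Rpn3 is highest in all 3 panels.

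A further 3 proteasome genes had a pooled but no optimal summit (6.25%), against 12.6% of all protein-coding genes. The windows of the 2 highest are shown, in the same way as above, because they lie just below the lowest optimal signal value of 97.2. The third, at Rpn9, lay in a UTR.
Rpn7, chr3R:22462116-22462216, minus strand: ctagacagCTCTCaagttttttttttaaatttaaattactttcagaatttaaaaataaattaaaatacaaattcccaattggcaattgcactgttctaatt
Rpn2, chr3R:29153332-29153432, plus strand: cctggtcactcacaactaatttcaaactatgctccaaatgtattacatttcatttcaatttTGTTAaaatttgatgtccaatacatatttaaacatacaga
The word in the Rpn7 window is GAGAG and that in the Rpn2 window is TAACA, both on the opposite strand.

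Rpn7, a structural lid subunit, had a pooled signal value of 92.5, rank 7819 of 30000, with its summit 112 bp upstream of the TSS. Replicate 2 gave 16.2 at 231 bp upstream and replicate 3 gave 67.5 at 175 bp upstream, so the replicates placed the peak differently. A second pooled peak, at 28.9, lay 318 bp upstream of Rpn7 and 83 bp upstream of AP-2mu, a clathrin adaptor gene on the other strand.

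Rpn2, the scaffold of the base, had a pooled signal value of 85.0, rank 8418, with 66.8 in replicate 3 and no peak within the window in replicate 2. Its summit lay 142 bp upstream of Rpn2 and 116 bp upstream of Slbp, which encodes the protein that binds the stem-loop of histone mRNAs. Rpn9, a structural lid subunit, had 44.3, rank 14484, with 35.9 in replicate 3 and none in replicate 2. That summit lay 104 bp downstream of the Rpn9 TSS, in the 5′ UTR of Rpn9. Of the 3 genes, Rpn2 and Rpn9 thus rested on replicate 3, as did Rpn13 among the optimal peaks.

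Rpn8, the inactive partner of Rpn11 in the lid, showed the reverse case. Both replicates had a summit at the same base, 24402807 on 2R, with 78.4 in replicate 2 (rank 3782 of 30000) and 107.8 in replicate 3 (rank 4651), yet the nearest pooled summit was 8804 bp away. The position is inside Rpn8, 198 bp upstream of an internal TSS of that gene and 127 bp upstream of a TSS of Slik, a kinase gene. Of the 7488 highest summits of replicate 2, 4892 had one of the 7488 highest of replicate 3 within 50 bp, and 39 of these 4892 had no pooled summit within 500 bp. Among all genes bound by the highest peaks of replicate 2, 95.7% also had a pooled summit, as did 80.8% of those bound by the highest peaks of replicate 3. For proteasome genes these counts were 3 of 4 in replicate 2 and 6 of 11 (54.5%) in replicate 3.

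**Figure D3:**
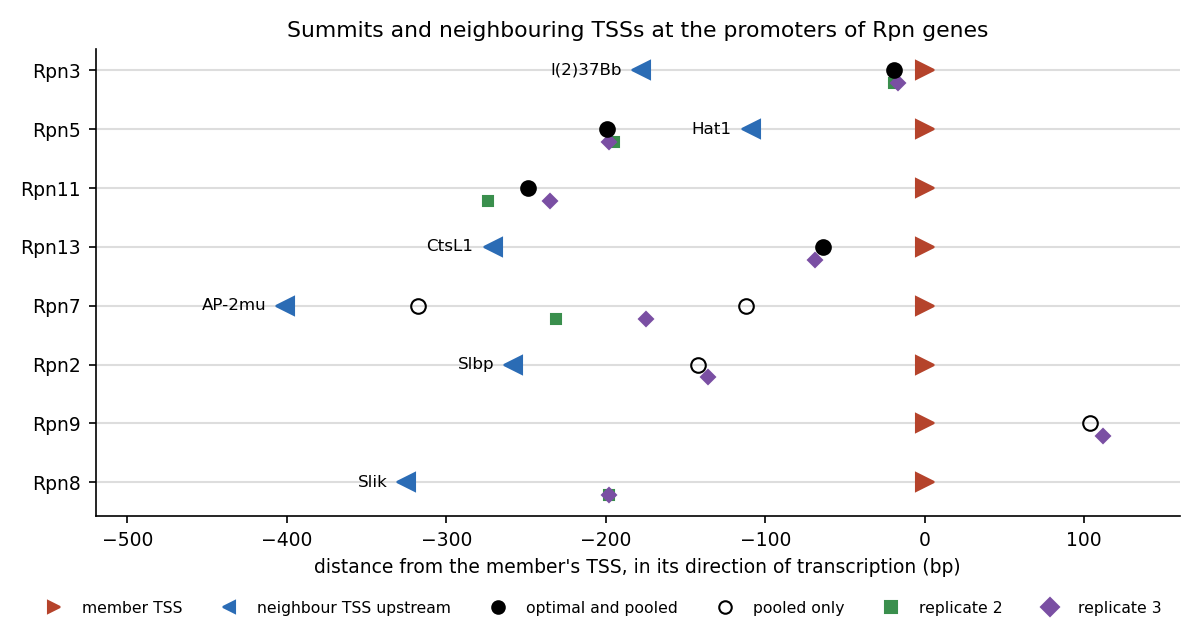
Positions of summits and of a neighbouring TSS upstream, in bp from the TSS of each gene (0, red) along its direction of transcription, for the 4 Rpn genes with an optimal peak, the 3 with a pooled peak only, and Rpn8. Circles are pooled summits, filled where the peak is also optimal, and squares and diamonds are those of replicates 2 and 3. The Rpn5 summit lies beyond the Hat1 TSS, and Rpn8 has summits in both replicates but no pooled one.

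The remaining promoter summits of proteasome genes were found in 1 replicate. Replicate 3 had 8 such genes. Among core genes Prosalpha4 had the highest, 128.5 (rank 3868), at 213 bp upstream of its TSS and 123 bp downstream of the TSS of kat80, a katanin gene on the other strand. Prosbeta1, which carries the caspase-like site, had 73.6 at 111 bp upstream of its TSS and 10 bp upstream of Rrp42, an exosome gene. Prosbeta2, which carries the trypsin-like site, had 35.1 and 19.3. The alpha-ring genes Prosalpha5 and Prosalpha3 had 36.7 and 18.0. Among regulatory genes Rpt2 had 70.3, the lid gene Rpn12 had 67.9 and Rpt5 had 61.6. For scale, the median signal value of the replicate 3 list was 28.7. In replicate 2 the paralog Prosbeta4R1 had 12.0, close to the lowest value of that list (11.4).

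The remaining core genes had no summit within 500 bp of a TSS in any of the 4 lists. These were Prosalpha1, Prosalpha2, Prosalpha6 and Prosalpha7 of the alpha ring, and Prosbeta3, Prosbeta4, Prosbeta5, Prosbeta6 and Prosbeta7 of the beta ring, among them the gene of the chymotrypsin-like subunit, Prosbeta5. The same held for the ATPase genes Rpt1, Rpt3, Rpt4 and Rpt6. The paralogs Prosalpha1R, Prosalpha3T, Prosalpha4T1, Prosalpha4T2, Prosalpha6T, Prosbeta2R1, Prosbeta2R2, Prosbeta4R2, Prosbeta5R1, Prosbeta5R2, Rpn12R, Rpn13R, Rpt3R, Rpt4R and Rpt6R also had none. For the 16 paralogs, the count was 0 in both the optimal and the pooled list, which allows a share of up to 18.8% in each. That limit lies above the 16.9% of all protein-coding genes in the optimal list and below their 29.5% in the pooled list. By chromosome arm, the optimal list held 2 of 8 members on 2L, 1 of 13 on 2R, 0 of 7 on 3L, 1 of 14 on 3R and 0 of 6 on X.

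Over all 48 genes, those with a promoter peak included, the nearest peaks also lay farther away at the median. The median distance from a TSS to the nearest optimal summit was 9540 bp for the 48 genes, against 6742 bp for all protein-coding genes. For the constitutive subunits it was 6170 bp, below that of all genes, and for the paralogs it was 12833 bp. It was 4365 bp for the constitutive regulatory genes and 8273 bp for the constitutive core genes. In the pooled list it was 5315 bp both for the 48 genes and for the constitutive subunits, against 2911 bp for all genes. In that list it was 4365 bp for the constitutive regulatory genes, 7418 bp for the constitutive core genes and 5724 bp for the paralogs. Each of these groups thus lay above the median of all genes there. The window of 500 bp was not near a step in the members' values. The number of bound members in the optimal list was 4 at 250, 500 and 1000 bp, and the next nearest summit was that of the core gene Prosbeta6, at 1095 bp and beyond its 3′ end. The share of all protein-coding genes did change with the window, from 12.2% at 250 bp to 20.8% at 1000 bp in the optimal list. In the pooled list, with 7 members bound at each window, it went from 22.1% to 35.6%. At 1000 bp the optimal share lay above the members' interval of 3.29 to 19.6%. At 250 bp the pooled share lay inside theirs, 7.25 to 27.2%. Over the gene body and 1000 bp upstream, 4 of the 48 genes held an optimal summit (8.33%), against 25.3% of all genes. Median gene length was 1381 bp for proteasome genes and 2164 bp for all protein-coding genes, and its part in that difference was not tested.

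**Figure D4:**
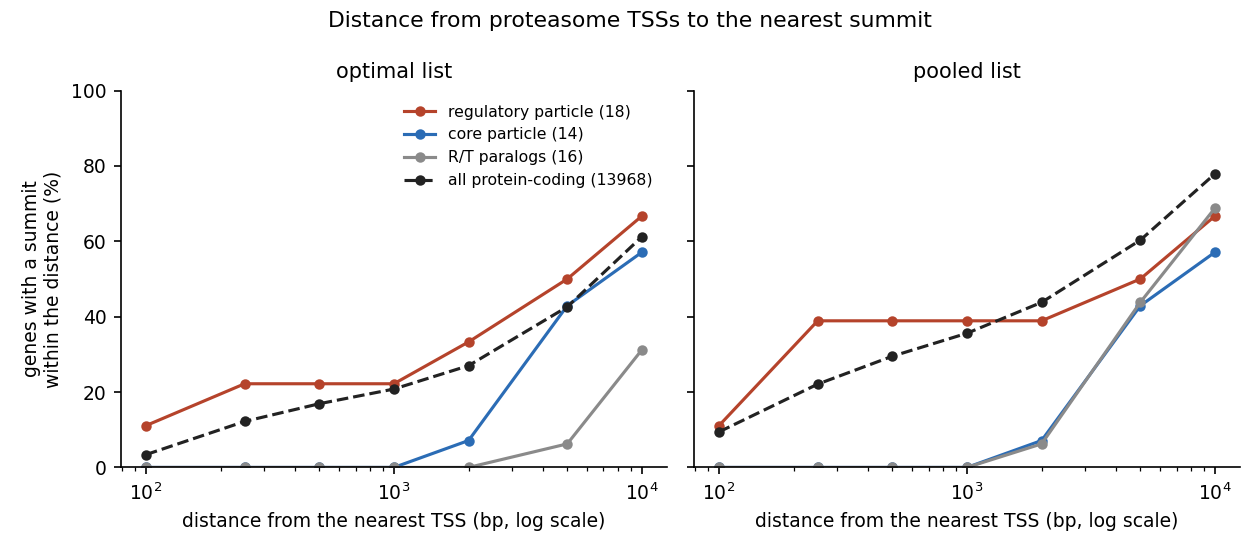
Cumulative share of genes, in percent, with a summit within a given distance (bp, log scale) of the nearest TSS, in the optimal list (left) and the pooled list (right), for constitutive regulatory genes, constitutive core genes, the R and T paralogs and all protein-coding genes. The core and paralog lines stay at 0 up to 1000 bp in both lists, and the regulatory line is flat between 250 and 1000 bp.

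Proteasome genes often had a TSS of another gene close to their own. Another protein-coding TSS lay within 500 bp of a TSS of 24 of the 48 genes, against 30.8% of all protein-coding genes. Among constitutive subunits the count was 21 of 32 (65.6%), made up of 12 of 18 regulatory and 9 of 14 core genes, and among the paralogs it was 3 of 16 (18.8%). All 25 pairs so formed, over 24 members, were on opposite strands, and their TSSs lay between 19 bp (Rpt3R and Alg12) and 417 bp (Prosbeta4 and Nubp1) apart.

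Most bound members had a shared promoter. In the optimal list 3 of the 24 members with a shared promoter were bound (12.5%, interval 4.34 to 31.0%), against 26.2% of all protein-coding genes with one. Of the 24 members without, 1 was bound (4.17%, interval 0.739 to 20.2%), against 12.8% of all such genes. Both intervals held the share of all genes. In the pooled list 6 of the 12 constitutive regulatory members with a shared promoter had a summit and none of the 9 core members had one, against 34.8% of all protein-coding genes with a shared promoter (1500 of 4309), and the difference between regulatory and core members was not tested. The neighbours bound in the optimal list were l(2)37Bb, Hat1 and CtsL1, each through the peak of its proteasome gene, and no neighbour was bound where the member was not. Where TSSs are this close, a summit cannot be assigned to 1 gene of a pair.

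The promoters were then searched for short sequence words, on either strand, over 300 bp, taken as the 250 bp before and 50 bp after the 5′ end of each gene. The words were the Sox core ACAAT and its longer form AACAAT, the Sox and TCF word ACAAAG, the reversed word TAACA, the DRE word TATCGATA, the homeodomain word TAATTA, the core GTCACAC of Motif 1, the E-box CACGTG, the GAGA word GAGAG and the antioxidant response element TGACNNNGC. Every AACAAT also counts as an ACAAT, and TATCGATA, TAATTA and CACGTG read the same on both strands. A match is a run of letters and not a site of a factor.

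The DRE word, known in flies as the element of the factor DREF at promoters of widely expressed genes, was found in 12 of the 32 constitutive promoters (37.5%), in 6 of 18 regulatory and 6 of 14 core genes. It was in none of the 16 paralog promoters and in 9.36% of all protein-coding promoters. The word lay in promoters with and without a pooled peak. Rpn3, Rpn13, Rpn7 and Rpn9 had a pooled summit, and the other 8 genes had none. Among these 8, Prosalpha3, Prosalpha5, Prosbeta1, Prosbeta2, Rpn12 and Rpt5 had a summit in replicate 3 alone. Prosalpha6 and Prosbeta6 had no summit in the window in any list. The word is shown for 5 of these 8, in capitals, with 20 bp to either side on the strand of the gene, from the RefSeq genome of the dm6 build.
Rpn12, chr3L:16582792-16582839, plus strand: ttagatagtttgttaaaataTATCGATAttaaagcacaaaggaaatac
Rpt5, chr3R:23752810-23752857, plus strand: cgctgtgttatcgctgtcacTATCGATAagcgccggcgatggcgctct
Prosalpha6, chr2L:10221315-10221362, plus strand: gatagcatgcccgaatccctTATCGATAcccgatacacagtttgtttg
Prosbeta2, chr3L:14999921-14999968, plus strand: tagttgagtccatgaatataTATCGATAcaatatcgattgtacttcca
Prosbeta6, chr3L:16610435-16610482, minus strand: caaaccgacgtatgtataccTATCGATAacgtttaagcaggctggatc
The first letter of the word lay 216 bp upstream of the 5′ end in Rpn12, 46 bp in Rpt5, 16 bp in Prosalpha6, 10 bp in Prosbeta2 and 44 bp in Prosbeta6.

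The bound share of proteasome genes with the DRE word was close to that of all genes with it in the optimal list. In the optimal list 2 of the 12 constitutive members with the word were bound (16.7%) and 2 of the 20 without it. Over all protein-coding genes the shares were 20.8% with the word and 16.5% without. In the pooled list a summit was found at 4 of the 6 regulatory members with the word and 3 of the 12 without it, and at none of the 6 core members with it and none of the 8 without it. All genes with and without the word had a pooled summit in 29.5% of cases. Over all peaks of replicate 3, every member with the word but Prosalpha6 and Prosbeta6 had a summit in the window. Without the word, Prosalpha4, Rpn2, Rpn5, Rpn8, Rpn11 and Rpt2 had one. The share of all protein-coding genes in that list was 37.0%. It was not split by the word, and the difference among members was not tested. At the summits themselves, within 50 bp, the DRE word was in 0 of the 4 optimal peaks of proteasome genes and in 1.56% of the 2053 optimal promoter peaks.

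The reversed word TAACA was in 27 of 32 constitutive promoters (84.4%), against 9 of 16 paralog promoters (56.2%) and 53.6% of all promoters. The median A+T content of the promoters was 66.5% for constitutive subunits, 67.3% for paralogs and 62.0% for all genes. Its part in the TAACA shares was not tested. The Sox core ACAAT was in 20 of 32 constitutive promoters (62.5%), close to the 61.3% of all promoters, and in 13 of 16 paralog promoters (81.2%). Its longer form AACAAT was in 14 of 32 constitutive (43.8%) and 7 of 16 paralog promoters (43.8%), against 32.1% of all promoters. These differences were not tested. The core of Motif 1, an element of fly core promoters, was in 6 constitutive promoters (18.8%) and no paralog promoter, against 9.47% of all. GAGAG was in 3 constitutive (9.38%) and 6 paralog promoters (37.5%), against 29.7% of all. The antioxidant response element, the type of word bound by factors of the cnc family, was in 5 constitutive promoters (15.6%) and 1 paralog promoter, against 8.62% of all. The E-box was in no proteasome promoter, against 4.2% of all.

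**Figure D5:**
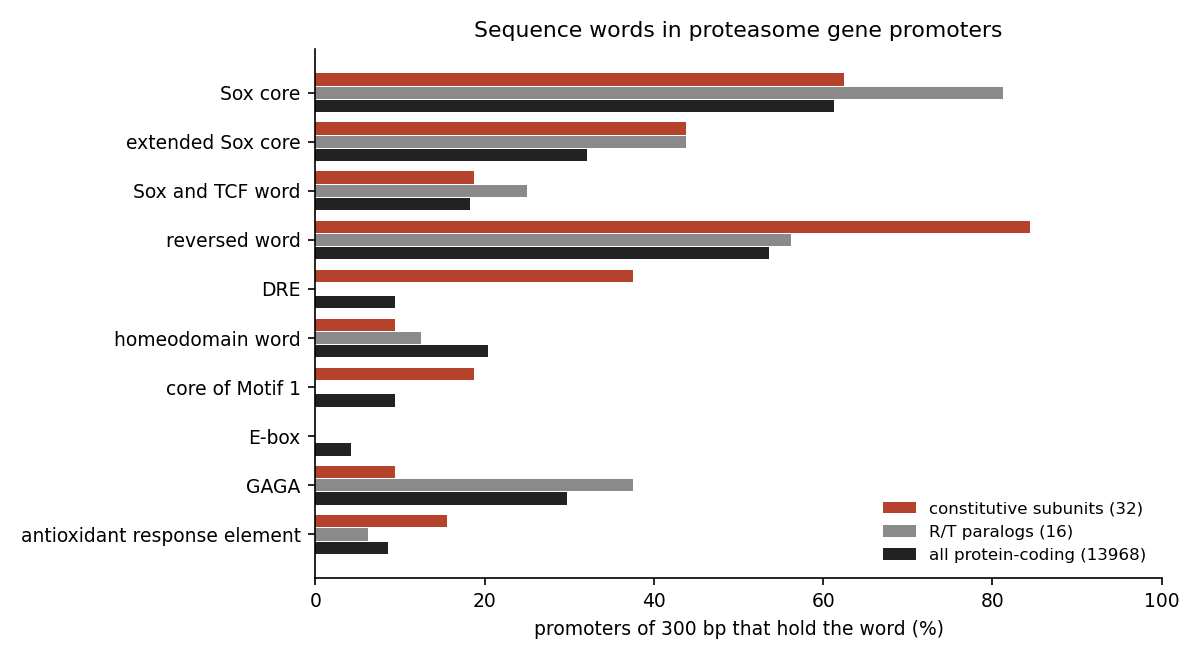
Share of 300 bp promoters, in percent, that hold each of 10 sequence words on either strand, for the 32 constitutive proteasome subunits, the 16 R and T paralogs and all 13968 protein-coding genes. Among constitutive subunits the reversed word stands at 84.4%, against 53.6% of all promoters, and the DRE word at 37.5%, against 9.36%.

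At the summits, within 50 bp, 3 of the 4 optimal peaks of proteasome genes held at least 1 of the words. The share of all optimal promoter peaks with at least 1 of the words was not computed, so this count has no comparison. ACAAT was in 1 of the 4 (Rpn5), against 34.4% of the 2053 optimal promoter peaks, and its longer form AACAAT was in the same 1, against 15.8%. TAACA was in 2 (Rpn5 and Rpn13), against 32.1%, TAATTA in 1 (Rpn11), against 13.7%, and GAGAG in 1 (Rpn13), against 7.84%. The shares rest on 4 peaks and were not tested. The summit windows of Rpn3, Rpn5, Rpn11, Rpn13, Rpn7 and Rpn2 were 75.2%, 69.3%, 75.2%, 73.3%, 77.2% and 72.3% A+T, around the median of 70.3% of those promoter peaks, and that of Rpn9 was 50.5%.

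Genes that work with the proteasome were counted from a separate list of 18, of which 5 were bound in the optimal list (27.8%, interval 12.5 to 50.9%), against 16.9% of all protein-coding genes. In the pooled list 8 were bound (44.4%, interval 24.6 to 66.3%), against 29.5%. Both intervals held the share of all genes. Pomp, which encodes the chaperone that assembles the core particle, had 502.9, with 185.6 in replicate 2 and 320.1 in replicate 3. The regulator cnc had 443.1, with 167.7 in replicate 2 and 275.2 in replicate 3. Npl4 and Ufd1, whose products help the ATPase TER94 extract ubiquitinated proteins, had 138.1 and 120.2, with peaks in both replicates. Uba1, the ubiquitin-activating enzyme, had 124.6, with 66.6 in replicate 2 and no promoter peak in replicate 3. A pooled peak alone was found at maf-S, the partner of cnc (93.0), at REG, an activator of the core particle (34.2), and at PI31, a proteasome regulator (24.9). Sem1, the small lid subunit whose symbol falls outside the naming rule, had no summit in the window. The ubiquitin genes Ubi-p5E and Ubi-p63E, the deubiquitinase genes Usp14 and Uch-L5, the shuttle factor genes Rad23, Ubqn and rngo, TER94 and Pngl had no pooled summit either.

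The COP9 signalosome, a complex whose subunits are related to those of the lid, had 1 of its 9 genes bound in the optimal list (11.1%, interval 1.99 to 43.5%), against 16.9% of all protein-coding genes. In the pooled list it had 2 (22.2%, interval 6.32 to 54.7%), against 29.5%. These were alien, which encodes CSN2, with 863.4 (316.6 in replicate 2 and 541.0 in replicate 3), and CSN8 with a pooled value of 60.6. The signal value at alien was above that of each proteasome gene.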

How the data were processed

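ChIP-seq peak lists of 2 biological replicates of 1 group were used. Per the deposited file lists, 1 control file was set against the alignments of each replicate for its own peak list and against both together for the pooled list, and the optimal IDR list was drawn from the other lists. The control was not analysed here. Coordinates are dm6 per the labels, with the aligner and caller not given in the sources used here. Signal values, a score in the deposited lists, have no scaling stated and were used within a list only. The deposited −log10 q-values were not used. Each replicate list and the pooled list ended at exactly 30000 peaks, and the optimal list equalled the 7488 highest pooled peaks.

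Summits were placed on the TSSs of Ensembl release 115 protein-coding genes (7 arms), and sequences were read from the RefSeq genome of the same build. Scripts ran under Python 3.11.15 with scipy 1.17.1, pandas 2.3.3, numpy 2.4.6 and matplotlib 3.10.9, and the counting was checked on simulated peaks. With 1 group no test between samples could be made, and counts stand beside those of all protein-coding genes. Intervals are Wilson intervals at 95%, and a count of 0 was given the limit of 3 counts. The members, words and gene lists were chosen with earlier results of these data known, and the division into lid and base was added after the values were seen. Every member is named, with full values for those with an optimal peak and for those with a pooled peak alone, and with sequences for the highest optimal peaks. The sequences of Rpn7, Rpn2 and the DRE words, the comparison of Rpn8 and the values of genes with a peak in 1 replicate were chosen after their values were seen. The alternatives tried were other promoter windows, TSS rules, overlap rules, signal cut-offs and each replicate alone. The name of 1 neighbouring gene is not reported here.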

Additional observations from a re-analysis of the deposited data

How the results depend on the processing

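Of 50 alternative values computed, 41 stayed within 1.5 times the main count or close to the main value, and 9 did not. These values are not all separate checks. Under most alternatives for the optimal list the regulatory count equalled that of all members, and the core and paralog counts were 0. With each replicate left out in turn, the number of proteasome genes bound in the optimal list was 4 to 11, that of regulatory genes 4 to 9 and that of core genes 0 to 2, and the number bound in the pooled list was 6 to 16. The upper value of each came from replicate 3 alone. With each pooled summit given to its nearest gene only, 4 of the 7 genes remained (Rpn3, Rpn7, Rpn11 and Rpn13). The median signal value of 272 was 175 over the pooled list and 141 to 156 with each replicate left out, on the scales of those lists. Shared promoters numbered 15 within 250 bp, against 24 within 500 bp. The paralogs stayed at 0 in the optimal list under every alternative tried. No paired analysis was possible because the samples form 1 group.

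Limits of the data are the small numbers of genes, the 2 replicates, the list length of 30000 that decides which weak peaks appear, the depth, which is unknown, and the shared control file, which was not analysed here. A peak shows where tagged chromatin was recovered in whole embryos and says nothing of transcription of the gene.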

Other observations

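At some genes of the fixed lists the replicate and pooled lists differed. Unlike at Rpn8, the replicates did not both hold a peak at the genes named here. The ubiquitin gene Ubi-p63E had a promoter peak of 108.5 in replicate 3, with none in replicate 2 or the pooled list. PI31 had 141.9 in replicate 3 and none in replicate 2, while its pooled value was 24.9. In the COP9 signalosome, CSN3 had 80.0 and CSN5 had 20.4 in replicate 3 alone, and CSN7 had 39.3 in replicate 2 alone. Signal values of different lists are on their own scales.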
